A study of Homo sapiens with 21 samples.

Results

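The genes of the BCL2 family decide, at the outer membrane of the mitochondrion, whether a stressed cell enters apoptosis. Anti-apoptotic members (BCL2, BCL2L1, which encodes BCL-XL, and MCL1) hold the pore-forming effectors BAX and BAK1 in check. BH3-only members (BCL2L11, which encodes BIM, BBC3, which encodes PUMA, PMAIP1, which encodes NOXA, BID and BMF) bind the anti-apoptotic members through a short helix, the BH3 domain, and some of them activate the effectors directly. The balance between these classes is known to set how tumour cells respond to kinase inhibitors and to drugs that damage DNA.

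The 10 genes named above were found by their Ensembl identifiers among 53515 genes of the count files, and all 10 had counts. They were followed in 21 RNA-seq libraries of 17 established human cancer cell lines, 7 of them parental and 10 grown resistant from these by months of exposure to a drug. HepG2 (liver) was the parental cell line of HepG2S1 and HepG2S3, which resist the multikinase inhibitor sorafenib. PancVB (pancreas) gave PancB1Q and PancB1V, which resist the antimetabolite 5-fluorouracil. Of the lung lines, HCC4006P1 gave HCC4006ER with the EGFR inhibitor erlotinib, while HCC4006P2 and HCC827P gave HCC4006GR and HCC827GR with gefitinib, which also targets EGFR. Of the ovarian lines, UWB1289 gave U10 and U100 with the PARP inhibitor olaparib, and IGROV-1 gave IGROV-1/CDDP with cisplatin, which crosslinks DNA. HCC4006P1 and HCC4006P2 are both HCC4006. Of the 17 lines, 13 had 1 library and 4 had 2 (HepG2 with HepG2S3, and HCC4006P1 with HCC4006ER), so a change in 8 of the 10 pairs rests on 1 library on at least 1 side. Nothing in the labels says that libraries of 1 line came from separate cultures, so the spread between them may be technical.

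All members share the BH3 core, in which a leucine codon is followed by any 3 codons, a glycine or alanine codon and an aspartate codon. Exactly 1 such core was found in the coding sequence of each of the 10 members, while 24.6% of 19894 proteins searched hold at least 1, so the match is a description of the family and not a test. The core with its surroundings is printed here for an anti-apoptotic pair (BCL2 and BCL2L1), an effector (BAX) and the 3 BH3-only genes that passed the test in both pairs with replicates (BCL2L11, BBC3 and BMF). Each run has 14 codons, is read 5′ to 3′ on the coding strand, comes from GENCODE transcripts on GRCh37, lies in 1 coding exon, and carries the 6 codons of the core in capitals.
BCL2, chr18:60985582-60985623, minus strand: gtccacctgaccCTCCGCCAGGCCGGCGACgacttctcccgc
BCL2L1, chr20:30309725-30309766, minus strand: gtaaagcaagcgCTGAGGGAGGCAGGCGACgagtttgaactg
BAX, chr19:49459032-49459073, plus strand: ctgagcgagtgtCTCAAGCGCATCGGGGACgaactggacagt
BCL2L11, chr2:111907668-111907709, plus strand: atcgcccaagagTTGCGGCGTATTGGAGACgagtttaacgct
BBC3, chr19:47729836-47729877, minus strand: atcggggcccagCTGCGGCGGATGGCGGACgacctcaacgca
BMF, chr15:40396396-40396437, minus strand: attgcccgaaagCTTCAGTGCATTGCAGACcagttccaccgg

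The libraries held 9851195 to 36639473 reads on genes, so that 3 counts, taken as the smallest detected number, equal 0.0819 to 0.305 CPM (counts per 1000000 reads on genes). Replicate 1 of HCC4006P1 had no counts for a long run of genes, in which none of the 10 members lies. These genes were left out of the test of HCC4006ER and of the test of the difference between the HepG2 and HCC4006 changes. They were kept in the fit over 7 parental lines, where leaving them out also gave 0 calls, among 15501 genes. They were also kept in the CPM totals and in the shares of all genes based on CPM. The run held 18.1% of the counts of HCC4006P1 replicate 2, so its absence raises the CPM of replicate 1. Before the comparisons, each line was set against markers of its tissue. HepG2 expressed all 5 liver markers (ALB, AFP, APOB, HNF4A and SERPINA1), with a summed level of 37765 CPM. The sum was 1.12 CPM in HepG2S1, with ALB, AFP and SERPINA1 at 0 counts, and 31.8 CPM in HepG2S3. Over 12381 genes the profiles labelled HepG2S1 and HepG2S3 had a Spearman correlation of 0.981 with each other but of only 0.741 and 0.747 with HepG2, which was the least alike of the 16 other lines for both. In the other 8 pairs the correlation with the parental line was 0.886 to 0.970, and no line of another pair was closer. HCC4006P1 also differed from HCC4006P2 in its lung markers, with NKX2-1 at 0.0802 CPM against 113 CPM. The part of these differences in the results below was not tested. The counts over pairs for BCL2 and the permutation tests are given with and without HepG2. The pancreatic list did not separate the tissues. All 5 pancreatic ductal markers stood at 1 CPM or more in PancVB and its derivatives, but also in 9 lines of other tissues, and KRT7 went from 1.03 CPM in HepG2 to 2912 CPM in HepG2S3, while KRT19 went from 1723 CPM in HCC4006P1 to 2.11 CPM in HCC4006ER. Of the 5 ovarian markers, the 5 ovarian lines held PAX8 at 357 to 664 CPM, above all other lines, and MECOM, but not WT1 or EMX2, which stayed under 1 CPM, and IGROV-1 and its derivative also lacked MSLN at that level. Summed leukocyte markers stayed at or below 13.3 CPM in every line, and summed endothelial markers reached 89.0 CPM in U10, of which CDH5 made 81.4.

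BCL2 was the only member whose change lay above 0 in 10 of 10 pairs, with the HCC4006 pairs resting on the very few counts given below. In CPM, BCL2 stood at 1.04 and 0.775 in the HepG2 libraries, at 19.9 in HepG2S1 and at 23.9 and 25.8 in HepG2S3. It stood at 0.829 in PancVB, 7.39 in PancB1Q and 7.09 in PancB1V. In the ovarian lines it was 3.87 in UWB1289, 16.0 in U10 and 11.4 in U100, with 2.84 in IGROV-1 against 19.8 in IGROV-1/CDDP. PancVB, UWB1289 and IGROV-1 have 1 library each, so overlap between libraries could not be assessed in their families. The lung lines split. HCC827P had 0 counts and HCC827GR 616, or 39.6 CPM, which is at least 229-fold higher than the 3 counts taken as the floor of the parental library. The 4 HCC4006 lines had very few counts, with 1 in the 2 HCC4006P1 libraries together, 1 and 6 in the HCC4006ER libraries, 0 in HCC4006P2 and 1 in HCC4006GR, so that only 1 library passed the floor and these counts allow no statement on a change.

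**Figure D1:**
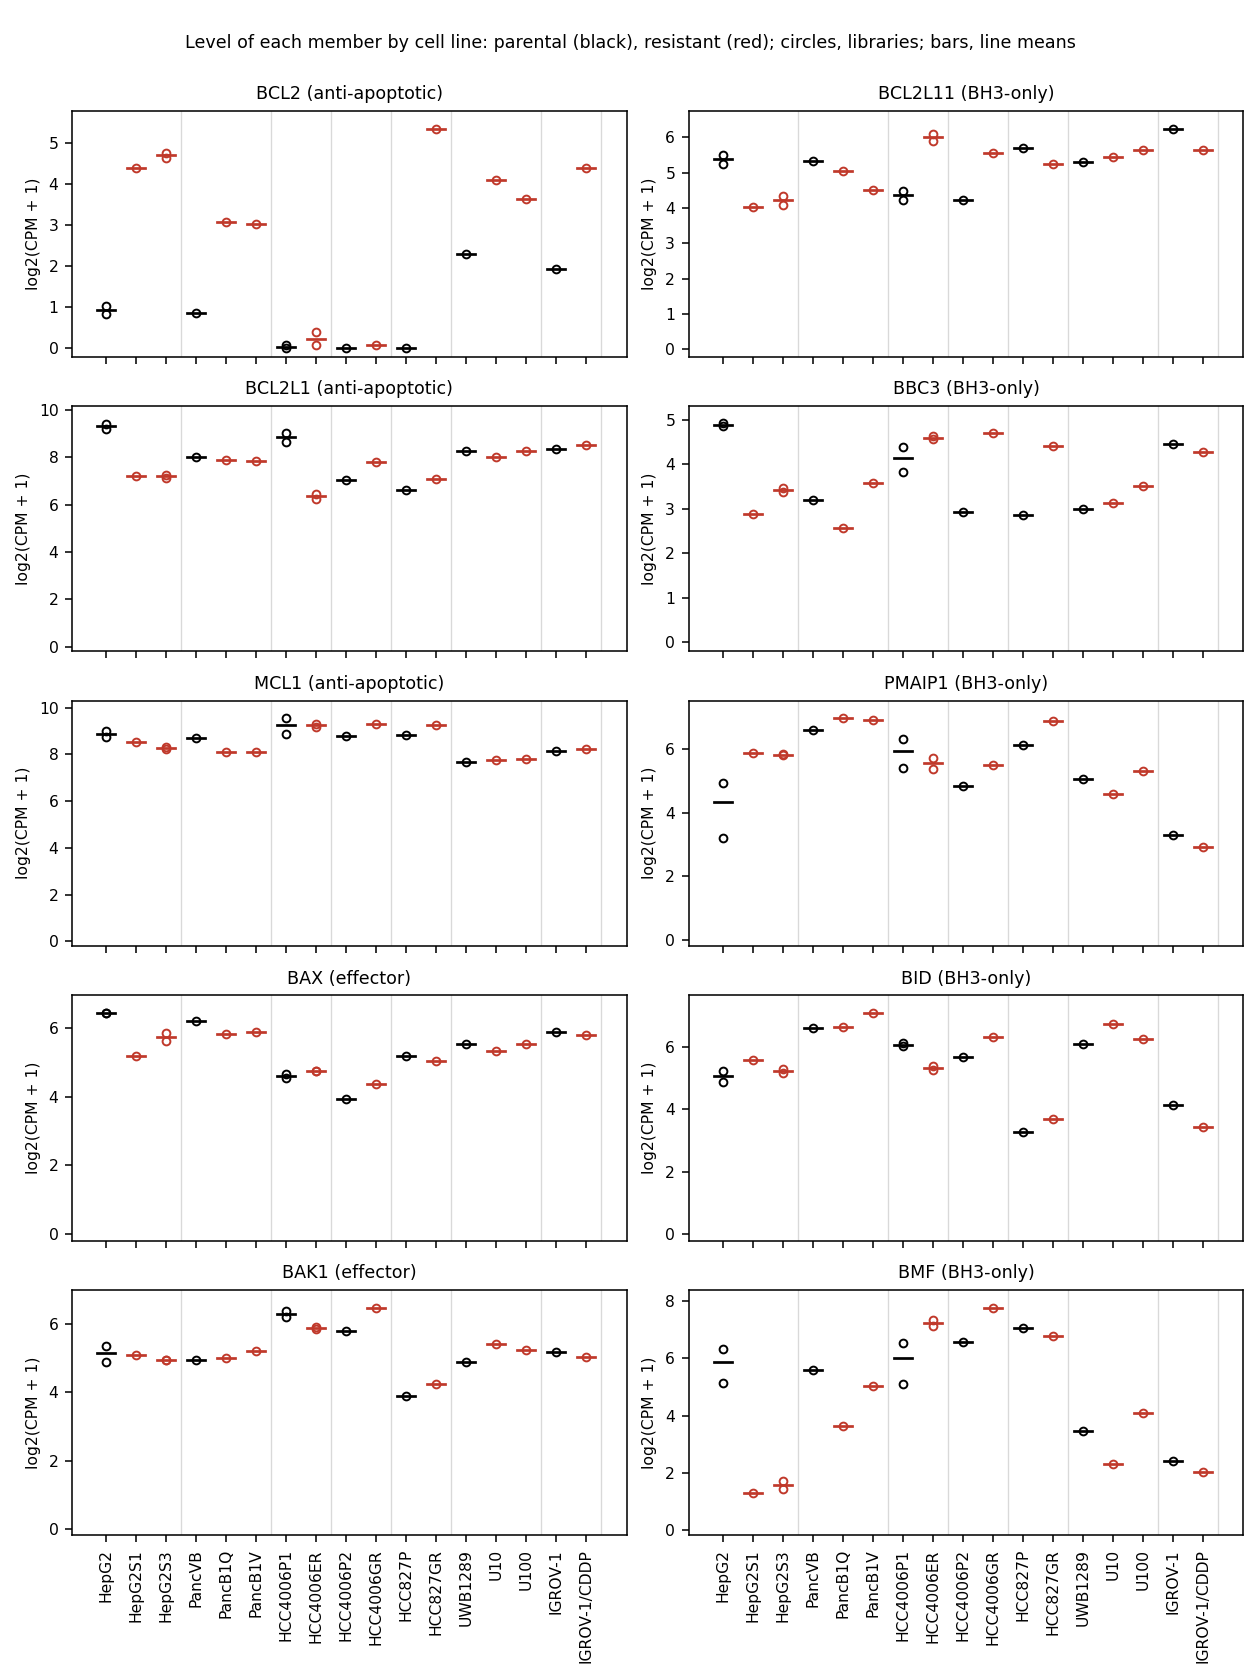
Level of each member (y axis, log2 of CPM + 1) in 17 cell lines (x axis), parental in black and resistant in red. Circles are libraries, bars are the mean of a line, and grey lines separate parental lines with their derivatives. BCL2 lies higher in every red line than in its black line, by little in the 2 HCC4006 pairs, whose counts allow no statement on a change.

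As a log2 fold change of CPM + 1, BCL2 changed by 3.45 in HepG2S1 and 3.76 in HepG2S3, by 2.20 in PancB1Q and 2.14 in PancB1V, by 5.34 in HCC827GR, by 1.80 in U10 and 1.35 in U100, and by 2.44 in IGROV-1/CDDP. These 8 changes exceeded the largest difference between replicate libraries for this gene, which was 0.32. That difference came from the HCC4006ER libraries, with 1 and 6 counts. It does not measure the spread in lines with 1 library. Over all 15394 genes with a mean of at least 1 CPM, 0.741% changed above 0 in all 10 pairs and 0.0844% by at least 1 in 8 or more. Averaged within each parental line, the change was 2.20 ± 1.86 (SD, n = 7), above 0 in 7 of 7. The exact two-sided sign-flip permutation p was 0.0156, the smallest that 7 lines allow. The values of HCC4006P1 and HCC4006P2, 0.20 and 0.09, lay within counting error. Counts above 0 and the smallest possible p-values, here and in the settings below, depend on the signs of these values. No correction was made over the 10 members. With HCC4006P1 and HCC4006P2, which are 1 cell line, averaged to 1 value, the mean was 2.55 ± 1.78 (SD, n = 6) with an exact permutation p of 0.03125, the smallest that 6 allow. Without the pairs of HepG2, BCL2 was above 0 in 8 of 8 pairs and at least 1 in 6, against 1.36% and 0.305% of all genes. The mean was then 1.97 ± 1.92 (SD, n = 6), with an exact permutation p of 0.03125, again the smallest possible. With both changes the mean was 2.34 ± 1.90 (SD, n = 5), above 0 in 5 of 5, where no p under 0.0625 can be reached. The fit across all genes gave no member a call over the 7 parental lines, since 0 of 20124 genes (0.0%) passed in edgeR. There BCL2 had a log2 fold change of 3.70 (SE 0.96) and an adjusted p of 0.932 in edgeR, and 3.57 with an adjusted p of 0.0067 in DESeq2, which called 113 genes in all. At an unadjusted p under 0.05, edgeR gave 956 genes. Without HepG2, edgeR again called 0 genes, of 19569 tested, and DESeq2 was not run without it.

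**Figure D2:**
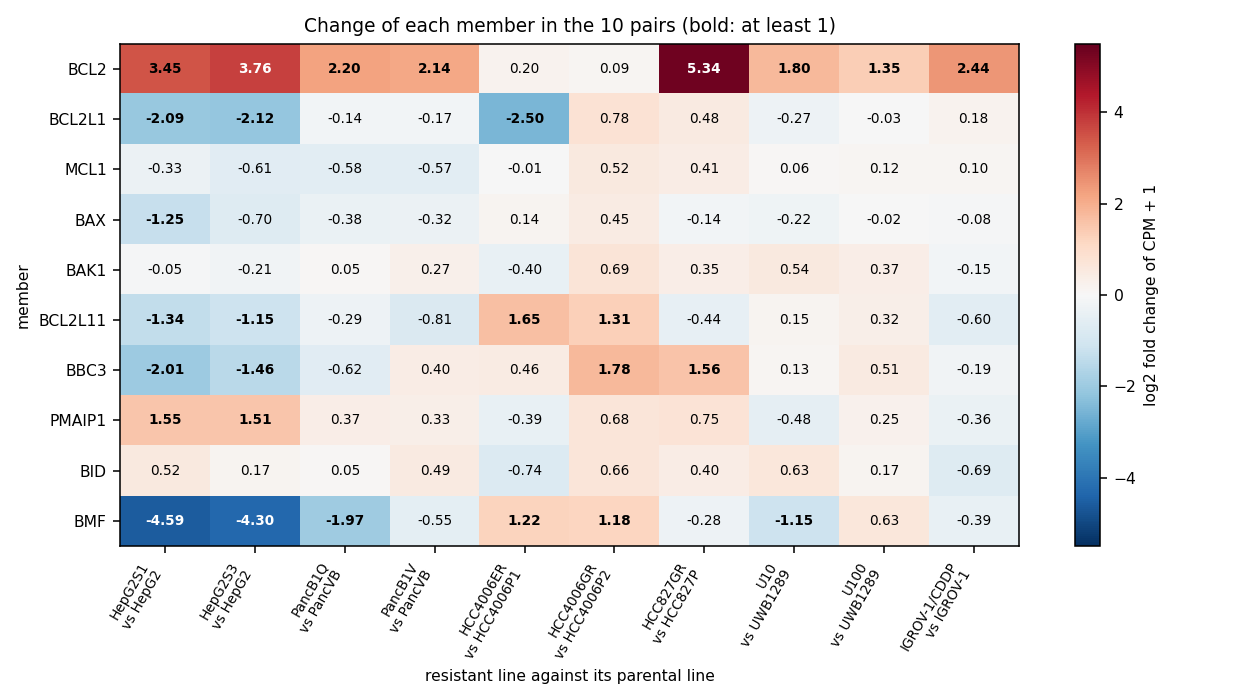
Change of each of the 10 members (rows) in each of the 10 pairs (columns) as the log2 fold change of CPM + 1, resistant against parental, with values of at least 1 in bold. The BCL2 row is above 0 throughout, in the HCC4006 pairs on counts too few for a statement, while BMF runs from -4.59 in HepG2S1 to 1.22 in HCC4006ER.

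The other 9 members had no shared direction. Their means over the 7 parental lines lay between -0.60 (BMF) and 0.35 (PMAIP1), with exact two-sided sign-flip permutation p-values of 0.28 to 0.91. Without HepG2 the mean of BMF turned to 0.04, and the p-values were 0.125 to 1.0. MCL1, BAK1 and BID changed by less than 1 in all 10 pairs. BAX, whose protein permeabilises the mitochondrial membrane, changed on this log2(CPM + 1) scale by at least 1 only in HepG2S1, by -1.25. Per pair, 1 to 7 of the 10 members changed by at least 1, counting both directions. The count was 7 in HepG2S1 and 6 in HepG2S3, where 38.6% and 39.0% of all genes did so, and 3 in HCC4006ER (25.1%) and HCC4006GR (13.8%). It was 2 in PancB1Q (13.6%), HCC827GR (15.9%) and U10 (10.3%), and 1, BCL2 itself, in PancB1V (14.3%), U100 (7.41%) and IGROV-1/CDDP (11.1%). The 25.1% for HCC4006ER includes genes of the empty run, whose HCC4006P1 level averages in replicate 1 without counts. No member lies in that run, so this share is a poor background for the members. In the 2 pairs of HepG2 the median change of all genes was 0.19 and 0.20 with CPM, and -0.10 and -0.06 with library sizes scaled by TMM, which put BCL2 there at 3.19 and 3.53. BCL2 lay above 0 in 10 of 10 pairs with either scaling, in the HCC4006 pairs on very few counts. HCC4006GR was the only line in which all 10 members lay above those of the parental line, BCL2 by 1 count against 0. This rests on 1 library a side, and the median change of all genes in this pair was -0.06.

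BCL2L1, the most abundant anti-apoptotic transcript in HepG2, was lower in both sorafenib-resistant lines and in the erlotinib-resistant line. Its CPM were 585 and 683 in the HepG2 libraries, 148 in HepG2S1 and 140 and 151 in HepG2S3. In the erlotinib pair they were 398 and 525 in HCC4006P1, and 74.0 and 87.2 in HCC4006ER. No library of these resistant lines came near its parental libraries. BCL2L1 fell by 2.44 on the log2 scale (SE 0.14, edgeR adjusted p = 1.2e-04) in HepG2S3 and fell by 2.51 (SE 0.27, adjusted p = 5.5e-04) in HCC4006ER. These 2 changes differed by 0.10 on the log2 scale (SE 0.33, edgeR adjusted p = 0.84), a test that does not show them to be equal. Of all genes, 63.4% of 16929 and 48.7% of 12791 were called in the 2 comparisons. In the gefitinib pairs BCL2L1 went the other way, from 130 CPM in HCC4006P2 to 223 in HCC4006GR and from 96.5 in HCC827P to 135 in HCC827GR. It changed by less than 0.3 on the log2 scale in the 5 pancreatic and ovarian pairs, where it ran from 228 to 370 CPM.

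MCL1, the short-lived anti-apoptotic member, stood at 472 and 743 CPM in HCC4006P1 and at 584 and 627 CPM in HCC4006ER. The 743 CPM belong to HCC4006P1 replicate 1, whose CPM are raised by its empty run of genes. The libraries overlapped (log2 fold change 0.07, SE 0.14, edgeR adjusted p = 0.70). The ratio of MCL1 to BCL2L1 counts within a library was therefore 1.87 and 0.898 in HCC4006P1, and 8.47 and 6.70 in HCC4006ER. In HepG2 it was 0.880 and 0.622, against 2.53 in HepG2S1 and 2.12 in both HepG2S3 libraries. Both genes were lower in HepG2S3, where MCL1 fell by 0.92 (SE 0.15, edgeR adjusted p = 0.0037). That call was lost without HepG2S3 replicate 1 (log2 fold change -0.85), in a fit that leaves 1 HepG2S3 library. In the other 7 pairs the ratio moved less, for example from 4.73 in HCC827P to 4.47 in HCC827GR and from 0.665 in UWB1289 to 0.738 in U100. Per kb of exon, which allows levels of different genes to be compared, MCL1 had a median level of 60.1 CPM per kb over the 17 lines, BCL2L1 of 55.5 and BCL2 of 0.307. The labels name a whole-transcript kit for all 21 libraries, while the methods of the study name this kit or a 3′ kit, whose counts do not scale with length, without saying which library used which.

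**Figure D3:**
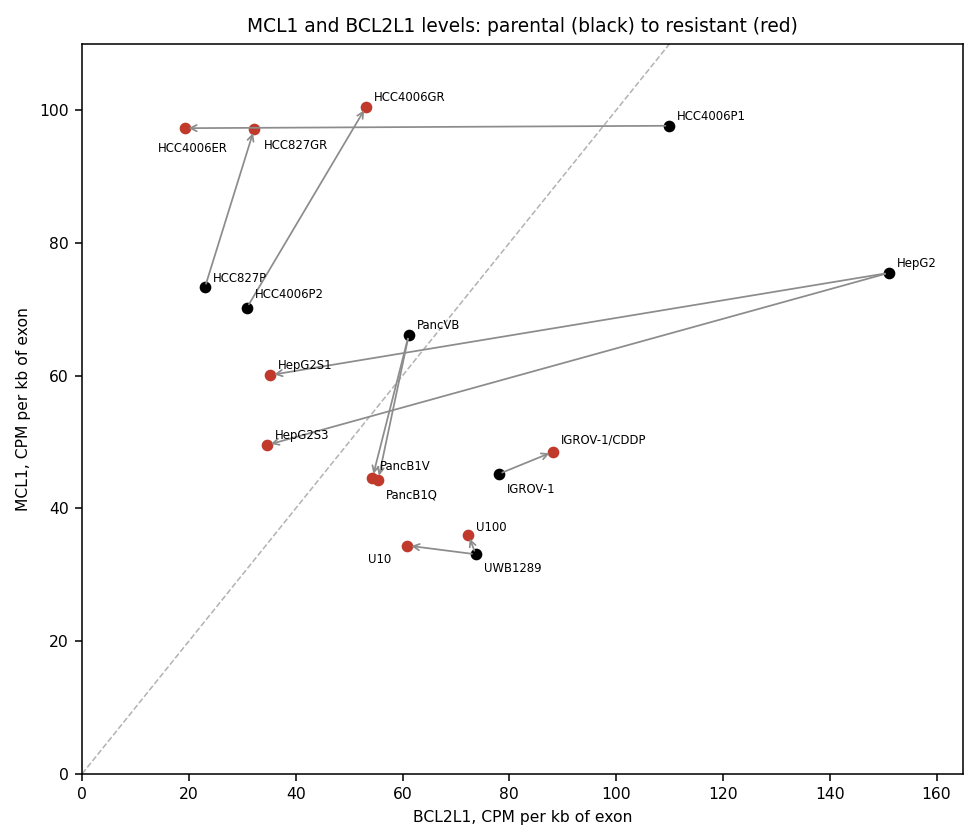
MCL1 (y axis) against BCL2L1 (x axis), both in CPM per kb of exon, in 17 cell lines, with arrows from each parental line (black) to its resistant lines (red) and a dashed line of equal levels. HepG2 and HCC4006P1 start to the right of the dashed line and their derivatives end to its left, while the ovarian lines stay to its right and the PancVB derivatives cross to it.

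Of the 5 BH3-only genes, BCL2L11, BBC3 and BMF moved in opposite directions in the 2 pairs with replicate libraries. In the edgeR test of each pair, BID passed only in HCC4006ER and PMAIP1 in neither, though PMAIP1 passed under alternatives given below. BCL2L11, a death mediator known to rise when EGFR signalling is blocked, stood at 21.4 and 17.7 CPM in HCC4006P1 and at 67.7 and 59.0 in HCC4006ER. It rose by 1.75 on the log2 scale (SE 0.14, edgeR adjusted p = 1.6e-04), and HCC4006GR was also higher, at 45.7 CPM against 17.9 in HCC4006P2. HCC827GR was lower than HCC827P, at 37.2 against 50.6 CPM. In the sorafenib pair BCL2L11 fell by 1.50 (SE 0.18, adjusted p = 0.0014), from 36.6 and 44.2 CPM in HepG2 to 19.4 and 16.0 in HepG2S3, with 15.3 in HepG2S1. The change in HepG2S3 was lower than that in HCC4006ER by 3.22 on the log2 scale (SE 0.25, edgeR adjusted p = 6.2e-06).

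BMF, which senses loss of attachment and is tethered to the actin motor complex, ran from 1.42 CPM in HepG2S1 to 217 CPM in HCC4006GR, the widest range of all members on the log2(CPM + 1) scale, on which BCL2 with its lines at 0 counts has a narrower one. It stood at 34.1 and 80.2 CPM in the HepG2 libraries, at 1.42 in HepG2S1 and at 2.25 and 1.66 in HepG2S3, and fell by 5.17 on the log2 scale in HepG2S3 (SE 0.51, edgeR adjusted p = 7.5e-04). In HCC4006P1 it was 93.0 and 33.4 CPM against 160 and 138 CPM in HCC4006ER, and rose by 1.35 (SE 0.33, adjusted p = 0.016). That call was lost without a filter on low counts (adjusted p = 0.10), with 8 libraries in 1 fit (0.061) and with the empty run of genes kept (0.13). The parental libraries of both pairs thus differed more than 2-fold between themselves. BMF was also lower in PancB1Q, at 11.3 against 47.4 CPM in PancVB, but PancB1V stood at 32.1. U10, at 3.90 CPM, and U100, at 15.9 CPM, lay on either side of UWB1289 at 9.90 CPM. The genes outside the lists whose levels were most like those of BMF over the 17 lines were SP110, KLF7 and SLC38A9, with Spearman correlations of 0.944, 0.922 and 0.907, given as a description of lines of which several share a parent.

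BBC3, a target of p53, stood at 29.4 and 28.0 CPM in HepG2, 6.40 in HepG2S1 and 10.1 and 9.50 in HepG2S3. It fell by 1.87 in HepG2S3 (SE 0.15, edgeR adjusted p = 3.8e-04) and rose by 0.56 in HCC4006ER (SE 0.15, adjusted p = 0.024), from 19.99 and 13.3 to 23.9 and 22.7 CPM. The second call was lost with the empty run of genes kept (edgeR adjusted p = 0.069). It was also lost without HCC4006ER replicate 1 or 2 (log2 fold change 0.53 or 0.57), in fits that leave 1 HCC4006ER library. Both gefitinib-resistant lines had more BBC3, HCC4006GR at 25.1 against 6.61 CPM and HCC827GR at 20.5 against 6.29 CPM. With 1 library on each side these have no replicate check, but both changes (1.78 and 1.56) exceeded the largest difference between replicate libraries (0.55).

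PMAIP1, a BH3-only gene whose product binds MCL1, varied most between the HepG2 libraries, which stood at 8.19 and 29.9 CPM. HepG2S1 had 57.5 CPM and HepG2S3 55.6 and 56.1 CPM, above both. The log2 fold change of HepG2S3 was 1.24 (SE 0.60, edgeR adjusted p = 0.13). It was 0.59 without HepG2 replicate 1 and 2.44 without replicate 2, in fits that leave 1 HepG2 library. With DESeq2 it was 1.28 and passed (adjusted p = 0.033). In HCC4006ER the log2 fold change of PMAIP1 was -0.31 (SE 0.22, edgeR adjusted p = 0.28). It passed there with the replicate number as a block, at -0.30 (edgeR adjusted p = 0.039). The difference between the 2 changes passed with DESeq2, at 1.56 (adjusted p = 0.027). BID, which links death receptors to mitochondria once cleaved, was 68.3 and 63.7 CPM in HCC4006P1 and 40.9 and 37.2 CPM in HCC4006ER, and fell by 0.72 (SE 0.14, edgeR adjusted p = 0.0072). That call was lost with the empty run kept (edgeR adjusted p = 0.061). It was also lost without HCC4006ER replicate 2 (log2 fold change -0.67), in a fit that leaves 1 HCC4006ER library. In HepG2S3, BID had a log2 fold change of -0.14 (SE 0.17, adjusted p = 0.50).

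Of the effectors, BAX stood at 85.6 and 85.2 CPM in HepG2, 35.3 in HepG2S1 and 48.1 and 56.6 in HepG2S3, and fell by 1.02 in HepG2S3 (SE 0.14, edgeR adjusted p = 0.0020). In HCC4006ER its log2 fold change was 0.17 (SE 0.19, adjusted p = 0.48). BAK1, which sits in the outer membrane before activation, missed the threshold in both pairs, at -0.53 (SE 0.21, adjusted p = 0.067) in HepG2S3 and at -0.36 (SE 0.13, adjusted p = 0.059) in HCC4006ER. It passed as a lower level in HCC4006ER with the replicate number as a block (edgeR adjusted p = 0.0099) and in HepG2S3 with 8 libraries in 1 fit (0.026). Without HCC4006P1 replicate 1 or 2 the log2 fold change in HCC4006ER was -0.46 or -0.27. Without HepG2 replicate 1 or 2 that in HepG2S3 was -0.26 or -0.78. Such fits leave 1 parental library, so their p-values rest on the spread between the resistant libraries and are not given. Over the 17 lines BAK1 ran from 13.96 CPM in HCC827P to 88.6 CPM in HCC4006GR, and BAX from 14.1 CPM in HCC4006P2 to 85.4 CPM in HepG2.

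Counted over the classes, 1 member rose (BCL2) and 6 fell in HepG2S3, where 31.2% of all genes were called higher and 32.2% lower. In HCC4006ER, 3 rose and 2 fell of 9 members tested, against 24.0% and 24.7% of all genes, as BCL2 did not reach the count needed for a test. Of the 5 BH3-only genes, 0 rose and 3 fell in HepG2S3, while 3 rose and 1 fell in HCC4006ER. In a direct test of the difference between the 2 changes, 5 of 10 members passed, all in the direction of a lower change in HepG2S3, where 56.0% of 14479 genes were called and 27.8% called lower. These were BMF, BCL2L11, BBC3, BAX and MCL1. The 5 differences draw on both pairs, and BMF, BCL2L11 and BBC3 were also called in HCC4006ER. HepG2S3 was nearly free of the liver markers of HepG2, and the part of this in the differences was not tested.

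**Figure D4:**
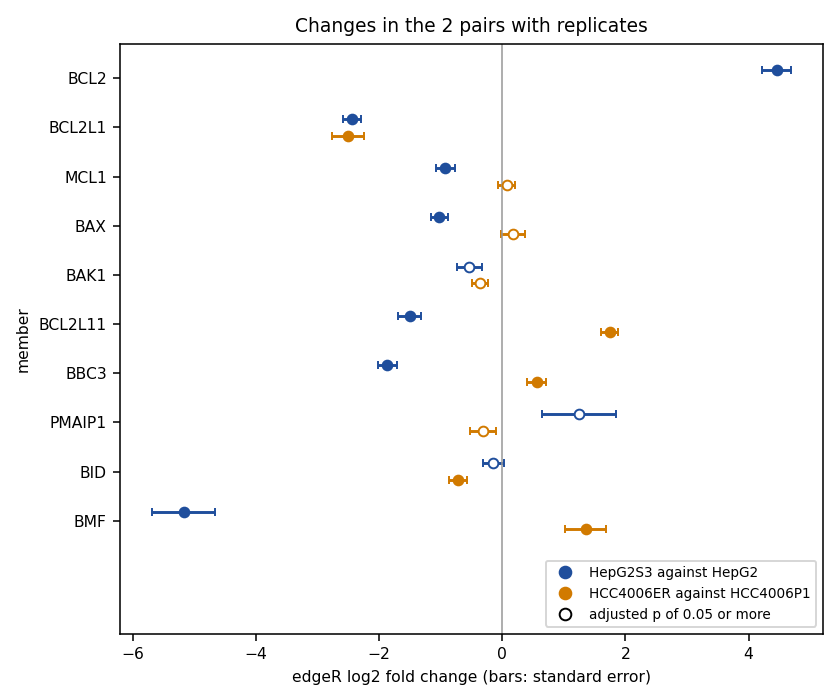
edgeR log2 fold change (x axis) of each member (y axis) in HepG2S3 against HepG2 (blue) and HCC4006ER against HCC4006P1 (orange), 2 libraries per line, with standard errors as bars and open symbols for an adjusted p of 0.05 or more. BCL2L1 lies at about the same place in both, while BCL2L11, BBC3 and BMF lie on opposite sides of 0.

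The order of the 17 lines could be resolved in part. Of the 16 gaps between neighbours in the order of levels, those larger than 2 SD between replicate libraries numbered 9 for BCL2, 7 for BAX, 4 for BID, 3 each for BCL2L1 and BAK1, 1 each for BCL2L11 and BBC3, and 0 for MCL1, PMAIP1 and BMF. The SD comes from the 4 lines with 2 libraries and was not measured in the others. For BCL2 it includes HCC4006 libraries of 0 to 6 counts, so its 9 gaps are less certain. PMAIP1 ran from 125 CPM in PancB1Q to 6.61 CPM in IGROV-1/CDDP, with both ends of the order in derivatives of lines that were themselves high or low (PancVB 96.7, IGROV-1 8.73). BID was likewise high in PancB1V at 134 CPM and PancVB at 94.6 CPM, and low in HCC827P at 8.77 CPM and HCC827GR at 11.9 CPM. BCL2L11 was highest in IGROV-1, at 74.5 CPM. MCL1 shares exon bases with ADAMTSL4-AS1 on the same strand and ADAMTSL4 on the other, BAK1 with GGNBP1 and BCL2L11 with MIR4435-2HG on the other strand, and the strand setting of the counting is not given in the sources used here, so these counts are less certain. In these bulk samples, fewer cells that express a gene and less RNA per cell cannot be told apart.

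Genes around the members in the pathway were counted from fixed lists. Of 11 other BCL2 family genes, 8 were tested in HepG2S3, of which 3 rose and 2 fell. The BH3-only gene HRK rose by 4.07 (SE 0.43), from 0.191 and 0.488 to 7.03 and 7.15 CPM, and the anti-apoptotic BCL2L2, which encodes BCL-W, fell by 2.09 (SE 0.13), like BOK, which fell by 2.53 (SE 0.20). In HCC4006ER 0 rose and 2 fell of 8 tested, of which BIK fell by 2.88 (SE 0.47) and BCL2L2 fell by 0.54 (SE 0.12). Of 8 inhibitors of apoptosis and their antagonists, 1 rose and 2 fell in HepG2S3, and BIRC3, which encodes cIAP2, went from 2.29 and 4.56 to 1343 and 1569 CPM. In HCC4006ER 0 of 6 passed in edgeR, with 2 at an unadjusted p under 0.05, and 0 of 7 in DESeq2. That count was not stable, since 3 of 6 passed with the replicate number as a block or without HCC4006P1 replicate 1, 4 of 7 without HCC4006P1 replicate 2, and 2 of 7 without a filter on low counts or with 8 libraries in 1 fit. Of the death receptor genes, 1 rose and 5 fell of 10 in HepG2S3, among them TNFRSF10B, which fell by 1.74 (SE 0.13), and 1 rose and 4 fell of 8 in HCC4006ER, among them FAS, which fell by 2.16 (SE 0.20). Of the regulators of the members, 5 rose and 6 fell of 14 in HepG2S3, and 0 rose and 6 fell of 10 in HCC4006ER, where TP73 fell by 2.40 (SE 0.27). All these passed at an edgeR adjusted p under 0.05, against the shares of all genes given above.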

How the data were processed

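RNA was sequenced from 21 cell line libraries. The authors deposited raw counts of reads per Ensembl gene, made with TopHat and Bowtie on hg19 and with HTSeq per the labels; the paper also names STAR for libraries of a 3′ kit. Versions are not given in the sources used here. Rows of reads without a gene (6.61% to 19.0% no feature) were left out.

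CPM used totals on genes and were averaged over the libraries of a line; changes are of log2(CPM + 1). HepG2S3 and HCC4006ER were tested against their parental lines with edgeR 4.0.16 (TMM, filterByExpr, quasi-likelihood, Benjamini-Hochberg over all genes, 0.05), with 2 libraries a line. The same test compared sums over 7 parental lines, and a contrast tested the difference between both changes. A sign-flip permutation over parental lines tested single members. In simulated data edgeR recovered 200 of 200 changed genes among 11549 in the HepG2 design, with 11 false calls. In the HCC4006 design it recovered 199 of 200 among 11812, with 8 false calls. Over 7 lines it recovered 200 of 200 among 15445, with 11 false calls. Recovery at the spread between the real libraries was not tested. Alternatives included DESeq2 1.42.0. Positions are GRCh37 from GENCODE, to which 45100 of 53515 genes matched. R 4.3.3 and Python 3.11.15 were used. The members and lists were chosen with earlier results of these data known. All members were named, and of each other list at most the 3 with the largest change past the threshold, plus the 3 genes most like the most variable member. A further list of pathway genes is not reported here. Replicate numbers come from the letters of the cell line labels. Titles number the HepG2 libraries otherwise.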

Additional observations from a re-analysis of the deposited data

Results flagged for a closer look

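The changes of 5 members differed between HepG2S3 and HCC4006ER in the test of the difference itself, out of 10 members tested. The change in HepG2S3 minus that in HCC4006ER was -6.51 for BMF (SE 0.75, edgeR adjusted p = 3.1e-04), -3.22 for BCL2L11 (SE 0.25, 6.2e-06), -2.40 for BBC3 (SE 0.22, 2.1e-05), -1.17 for BAX (SE 0.25, 0.0036) and -0.96 for MCL1 (SE 0.21, 0.0040). BMF, BCL2L11 and BBC3 fell in HepG2S3 and rose in HCC4006ER, while MCL1 and BAX were called in HepG2S3 only. Over all genes 56.0% passed this test. The liver markers, at 37765 CPM in HepG2 and 31.8 CPM in HepG2S3, moved with these differences, and their part was not tested. In a search for single parental lines far from the others, none of the 10 members had one among its 7 values, where chance flags about 1 group in 20. The BMF change of -4.44 in HepG2, against -1.26 to 1.22 in the other parental lines, was thus not flagged.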

How the results depend on the processing

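Of the tested changes of the members under the alternatives, 369 kept their direction and side of the threshold, 20 newly passed, 9 no longer passed and 22 changed sign. The calls of HCC4006ER were the least stable. A fit of 1 pair without 1 library takes its spread from the other line alone, and its calls rest on that spread. Leaving out 1 library at a time gave 4064 to 8370 genes and 3 to 8 members, against 6231 genes and 5 members; the highest member count came without HCC4006P1 replicate 2 and the lowest without HCC4006ER replicate 2. Keeping the empty run of genes gave 3394 genes and 2 members. For HepG2S3 the range was 7179 to 13242 genes and 6 to 10 members. Over the 7 parental lines, DESeq2 called 113 genes and 1 member, BCL2, and edgeR without a filter on low counts called 4 genes. With TMM library sizes the median level over 17 lines was 39.2 CPM for BAX and 44.5 CPM for BID, against 44.9 and 49.6 CPM. The same replicate numbers did not deviate together in HepG2 (correlation 0.015) as they did in HCC4006 (0.39). With the replicate number as a block, 10474 genes and 7 members passed in HepG2S3, 7825 genes and 7 members in HCC4006ER, and 8109 genes and 6 members in the difference; the labels do not say that a number marks a shared culture. All sign changes were in values that had not been called. Over the left-out libraries, the difference between both changes ran from -0.75 to 3.62 for BCL2, -0.35 to 0.44 for BCL2L1 and -0.37 to 0.12 for BAK1. The change in HCC4006ER ran from -0.079 to 0.21 for MCL1 and from -0.060 to 0.42 for BAX, and that of BID in HepG2S3 from -0.31 to 0.023. Over the parental lines left out in turn, MCL1 ran from -0.13 to 0.11, BAX from -0.26 to 0.0055, BAK1 from -0.00019 to 0.21, BCL2L11 from -0.23 to 0.29, BID from -0.064 to 0.19 and BMF from -0.68 to 0.12, the upper ends of MCL1, BAX and BMF being those without HepG2. MCL1 was 0.010 without a filter and BCL2L11 -0.22 with both HCC4006 lines as 1. In the sign-flip test, under alternatives chosen after seeing the data, the mean of BMF was 0.036 without HepG2, those of MCL1 and BCL2L11 were -0.031 and -0.19 with HCC4006 as 1 line, and that of BCL2 was 2.34 with both, where 5 lines cannot reach a p under 0.0625. The cause of these shifts was not tested. Depth limits BCL2 in the HCC4006 lines, where 0 to 6 counts a library allow no statement on its change, and the HCC4006P2, HCC827P and IGROV-1 families have 1 library a line.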
